A study of Rattus norvegicus with 26 samples.

Results

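The 10 genes considered here belong to the nuclear factor kappa B (NF-kB) pathway and the response to lipopolysaccharide (LPS), and were followed rat by rat in the dentate gyrus (DG), the part of the hippocampus that holds the granule cells. They were the receptor genes Tlr4 and Cd14, the subunit genes Nfkb1, Nfkb2, Rela and Relb, the inhibitor and regulator genes Nfkbia, Bcl3 and Tnfaip3, and the adhesion gene Icam1. They were chosen by gene symbol, and all 10 of 10 were found among 17910 gene IDs. Each of the 10 also passed the filter for testing, a mean of at least 5 normalized counts, as did 15595 genes in all. For Bcl3 this was through the Dox group alone: its mean was 7.36 over 26 rats and 3.08 without 2 Dox rats in which it was high, so the 10 passing genes are no support for a difference.

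RNA came from the DG of 1 hemisphere in 26 male F344 rats, 6 months of age. The 8 Dox rats received doxorubicin (Dox), an anthracycline used in chemotherapy, as 4 weekly injections of 2 mg/kg. Another 8 (Dox + ABT) received the same Dox schedule with ABT-263 (navitoclax), a senolytic that inhibits Bcl-2 family proteins, by oral gavage at 12 mg/kg for 5 days in alternate weeks. The Veh group of 10 rats was gavaged with vehicle alone and belonged to an ongoing study of brain aging. No group received ABT-263 alone.

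NF-kB is a family of transcription factors that rest in the cytoplasm, bound by inhibitor (IkB) proteins. LPS, a component of bacterial cell walls, is carried by CD14 to the Toll-like receptor TLR4. The signal passes through adaptors and the IkB kinase (IKK) complex, which marks the inhibitor for destruction and frees the factor to enter the nucleus. Several of the genes switched on code for inhibitors of the pathway itself, which makes it self-limiting. In brain, microglia and endothelial cells are the cells best known for carrying it.

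Read depth, estimated from the value of 1 read, ran from 10200000 to 24300000 reads per library. Libraries were divided into a first kind (4 Veh, 5 Dox and 7 Dox + ABT) and a second kind (6, 3 and 1). The division followed the main component of expression variation within groups, which held 28.4% of the variance. Each group was cut at its own widest gap, so every group yields both kinds by construction. Scores are relative to the group's mean, so a kind need not match between groups. Neither the labels nor the methods name a source for that split. A pair of Dox rats, numbered 1 and 2, stood apart from the rest in several of the 10 genes, and their libraries were both of the first kind. This was seen after the values were known, so the calls among the 10 genes are also given without Dox 1 and Dox 2. Their reads differed by a mean chi-square of 5.70 per gene, within the 3.08 to 47.6 (median 15.7) of the 101 pairs of libraries within groups, and both were kept as separate samples.

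The bases just before the start of a gene can hold binding motifs, and the 250 bases before the start of 4 of the genes are printed here. Bcl3 and Nfkbia were the genes with calls among the inhibitors, and Tnfaip3 held most matches. Icam1, which stood high in Dox 1 and Dox 2, held no exact match to the pattern used. Capitals mark exact matches, on either strand, to GGGRNWYYCC, a strict form of the kB consensus, the short motif that NF-kB dimers recognise. In it R is A or G, N any base, W A or T, and Y C or T. The sequences are RefSeq's, of assembly GRCr8 rather than the rn6 used for the expression values, and each is written 5′ to 3′ on the strand of its gene.
Bcl3 (chr1:88613556-88613805, minus strand): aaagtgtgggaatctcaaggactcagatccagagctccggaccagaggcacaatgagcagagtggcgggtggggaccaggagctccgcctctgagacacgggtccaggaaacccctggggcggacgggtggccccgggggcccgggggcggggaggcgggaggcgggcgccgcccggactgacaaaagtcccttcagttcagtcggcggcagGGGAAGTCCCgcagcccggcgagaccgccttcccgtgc
Nfkbia (chr6:78597073-78597322, minus strand): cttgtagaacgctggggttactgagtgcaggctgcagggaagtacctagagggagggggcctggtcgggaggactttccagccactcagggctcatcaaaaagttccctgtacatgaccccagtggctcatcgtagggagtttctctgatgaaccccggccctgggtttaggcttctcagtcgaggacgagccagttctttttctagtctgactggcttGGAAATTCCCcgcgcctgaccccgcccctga
Tnfaip3 (chr1:15543980-15544229, minus strand): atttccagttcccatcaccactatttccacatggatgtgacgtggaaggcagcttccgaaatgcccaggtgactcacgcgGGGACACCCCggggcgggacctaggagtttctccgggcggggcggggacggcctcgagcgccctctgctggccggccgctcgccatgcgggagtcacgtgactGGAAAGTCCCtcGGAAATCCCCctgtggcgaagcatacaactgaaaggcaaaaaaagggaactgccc
Icam1 (chr8:27829595-27829844, plus strand): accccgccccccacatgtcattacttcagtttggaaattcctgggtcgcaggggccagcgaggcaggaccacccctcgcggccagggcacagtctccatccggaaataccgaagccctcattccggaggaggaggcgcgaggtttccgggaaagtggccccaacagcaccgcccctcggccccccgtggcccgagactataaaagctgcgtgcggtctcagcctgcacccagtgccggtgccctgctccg

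The Bcl3 match, GGGAAGTCCC, began 38 bases before the start and the Nfkbia match, GGAAATTCCC, 31 bases before it. Tnfaip3 had 3 matches, which began 170, 67 and 55 bases before the start. Nfkb2 had GGGACTTTCC 20 bases before its start and Nfkb1 had GGGAATTTCC just after its own. Over windows of 250 bases before to 50 bases after the start, 5 of the 9 genes with a window (55.6%) held a match, against 4.18% of 33469 windows and 5.06% of the 12243 windows of tested genes. The windows of Cd14, Rela, Tlr4 and Icam1 held none, which says only that these letters are not there. Near matches are not counted: tggaaattcc in the Icam1 window differs from the pattern at its first base. Relb has no window here. A match is a description of sequence, and binding was not measured.

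Dox and Veh were compared first, the comparison in which neither group received ABT-263. The study describes no saline injection of Veh rats and no vehicle gavage of Dox rats, and Veh belonged to an ongoing study. Cohort, injection and gavage therefore cannot be told apart from Dox in this comparison. Across the 10 genes, Bcl3 was higher in Dox and 9 did not pass the test (limma on log2(value + 1), p under 0.01). Of all tested genes 2.87% passed, but Bcl3 entered the test through the Dox group, so nothing is read from its call against that share. Without Dox 1 and Dox 2, 0 of the 10 passed in limma, 1 had an unadjusted p under 0.05, and 1.16% of all genes passed. In Dox + ABT against Veh, 0 of 10 passed in limma, with 1 at an unadjusted p under 0.05, while 7.84% of all genes passed. In Dox against Dox + ABT, Nfkbia and Cd14 were higher in Dox, 2 of 10 against 4.03% of all genes. Without Dox 1 and Dox 2 the call for Nfkbia held in that comparison, 1 of 10 against 2.97%. No call passed an adjusted p of 0.05.

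**Figure D1:**
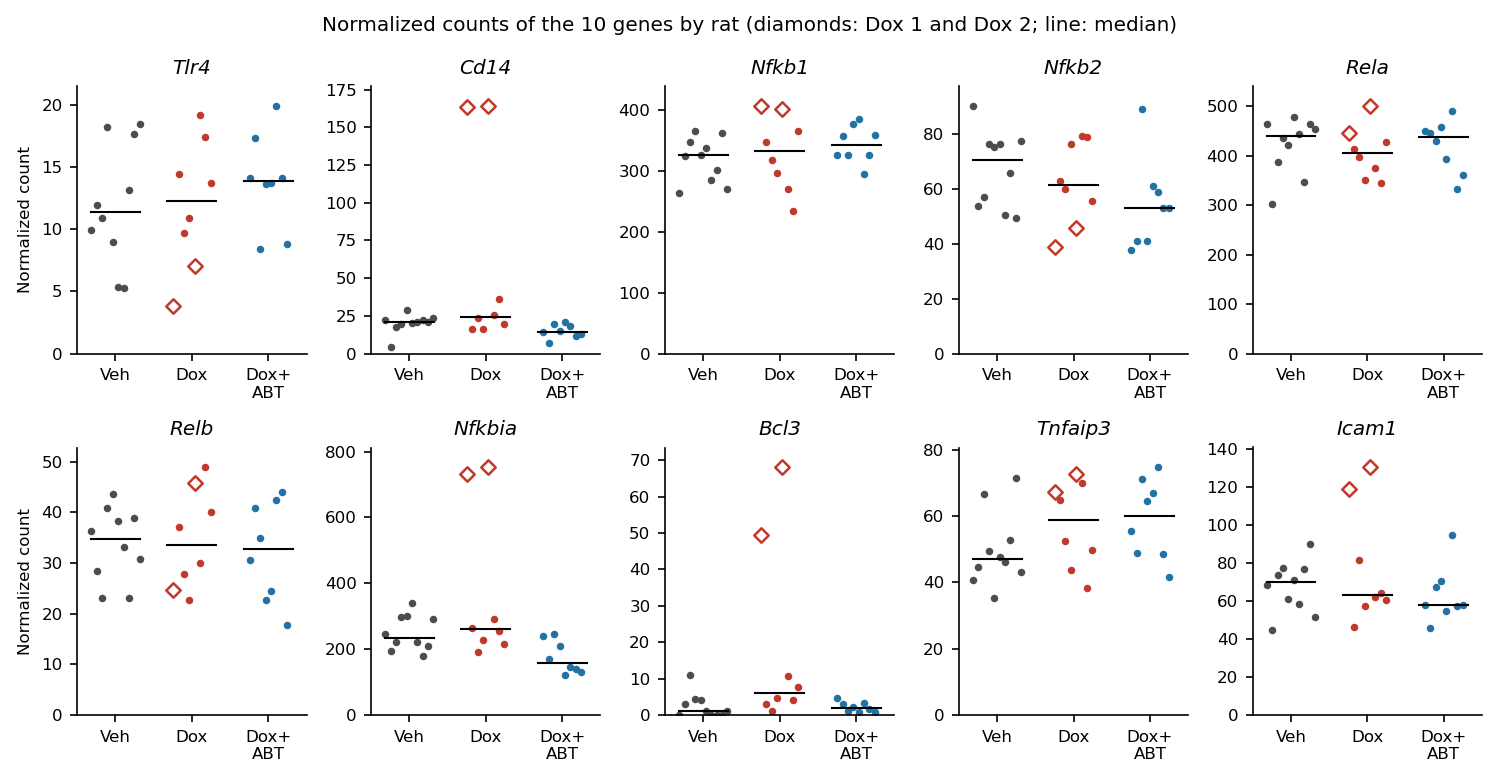
Normalized counts (y axis, linear from 0) of each of the 10 genes in every Veh (grey), Dox (red) and Dox + ABT (blue) rat. Each point is 1 rat, the black line is the group's median and open diamonds are Dox 1 and Dox 2, which lie above all other rats for Cd14, Nfkbia, Bcl3, Nfkb1 and Icam1 and low for Tlr4 and Nfkb2.

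The receptor genes went different ways in those rats. Tlr4 codes for the receptor that senses LPS. Its normalized count ran from 5.28 to 18.5 in Veh (median 11.4), from 3.79 to 19.2 in Dox (median 12.3) and from 8.43 to 19.9 in Dox + ABT (median 13.9). The 3 groups overlapped almost fully. Dox 1, at 3.79, was the lowest of the 26 rats, and Dox 2, at 7.04, ranked 23 of 26. The log2 fold change of Dox over Veh was -0.02, with a 95% interval of -0.59 to 0.56 (limma p = 0.955). Without Dox 1 and Dox 2 it was 0.30 (-0.25 to 0.85). Against Veh, Dox + ABT differed by 0.25 (-0.33 to 0.82), an interval that spans changes in both directions.

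Cd14 codes for the coreceptor that hands LPS to TLR4. Its count ran from 4.47 to 29.0 in Veh (median 21.2) and from 7.14 to 20.6 in Dox + ABT (median 14.4). Dox 1 stood at 163 and Dox 2 at 164, while the other 6 Dox rats ran from 16.4 to 36.3 (median 21.6). Those values are 7.56 and 7.61 times the median of the other Dox rats, which themselves overlapped Veh. They rest on 172 and 140 estimated reads. Dox exceeded Veh by 0.94 on the log2 scale (SE 0.40, limma p = 0.0251, adjusted p = 0.440), which did not pass. Without the pair of rats the difference was 0.23 (-0.35 to 0.82, p = 0.419). Relative to Dox + ABT, Cd14 was higher in Dox by 1.31 (SE 0.42, limma p = 0.00410, adjusted p = 0.193, two-sided exact permutation p = 0.00466). Without Dox 1 and Dox 2 that difference was 0.60 (-0.01 to 1.22, limma p = 0.0530), so the call rests on them. Leaving out Dox 1 or Dox 2 alone also ended the call (1.01, limma p = 0.0136 for each), as did leaving out Dox + ABT 11 (1.18, limma p = 0.0108).

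The subunit genes differed little between groups. Nfkb1 codes for p105, the precursor of p50. The Veh rats averaged 319 ± 36.8 (SD, n = 10), the Dox rats 330.2 ± 61.9 (SD, n = 8) and the Dox + ABT rats 344 ± 30.8 (SD, n = 8). Dox 1 at 407 and Dox 2 at 402 were the highest of all rats, above 386 in the next. They were 1.33 and 1.31 times the median of the other Dox rats, which ran from 234 to 366. The log2 difference between Dox and Veh was 0.04 (-0.17 to 0.24, limma p = 0.717).

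Nfkb2 codes for p100, the precursor of p52 in the noncanonical branch. It ran from 49.5 to 90.2 in Veh (median 70.7), from 38.9 to 79.2 in Dox (median 61.4) and from 37.7 to 89.2 in Dox + ABT (median 53.0). Here Dox 1 at 38.9 and Dox 2 at 45.8 were below the other 6 Dox rats (55.7 to 79.2), ranking 25 and 22 of 26. Dox + ABT was lower than Veh by -0.33 on the log2 scale (-0.67 to 0.02, limma p = 0.0646), short of the threshold.

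Rela codes for p65, the subunit that activates transcription in the canonical branch. It ran from 302 to 478 in Veh, 344 to 501 in Dox and 332 to 490 in Dox + ABT. Dox against Veh was -0.04 (-0.24 to 0.16) and -0.12 without the pair, and Dox + ABT against Veh 0.00 (-0.19 to 0.20). Within the kinds of library the Dox value turned: it was 0.23 in the first (limma p = 0.0796) and -0.33 in the second (limma p = 0.00445). In the second kind the 3 Dox rats lay between 344 and 376 and the 6 Veh rats between 422 and 478, without overlap. Rela was the only 1 of the 10 to pass there, against 3.57% of all genes. In the first kind 0 of 10 passed in limma, with Bcl3, Cd14 and Nfkbia at unadjusted p of 0.0279, 0.0161 and 0.0261, against 4.76% of all genes. Whether the kinds differ in this was not tested.

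Relb, the partner of p52, was read from 2 transcript rows that were summed. It ran from 23.1 to 43.6 in Veh, 22.7 to 48.9 in Dox and 17.7 to 44.1 in Dox + ABT. Dox 1 (24.7) and Dox 2 (45.8) fell on opposite sides of the Dox median of 33.5. The difference between Dox and Veh was 0.02 (-0.37 to 0.42, limma p = 0.906), and 0.02 without the pair.

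The inhibitors held the 2 smallest p-values of the 10 genes. Nfkbia codes for IkB alpha, which holds NF-kB in the cytoplasm and is itself a classic NF-kB target. In Veh it ran from 181 to 341 (median 234) and in Dox + ABT from 122 to 247 (median 157). Dox 1 reached 731 and Dox 2 reached 752, which are 3.03 and 3.11 times the median of the other 6 Dox rats (192 to 291, median 242). Those 6 lay within the Veh range, and 3 of them were above every Dox + ABT rat.

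The Dox rats averaged 366 ± 234 (SD, n = 8) and the Veh rats 250.4 ± 53.7 (SD, n = 10). The log2 difference of 0.37 (-0.10 to 0.84, limma p = 0.118) did not pass. Without the pair of rats it was -0.04 (-0.37 to 0.29). The Dox + ABT rats averaged 175 ± 50.4 (SD, n = 8). They differed from Veh by -0.53 (SE 0.23, limma p = 0.0273, adjusted p = 0.174), which missed the threshold. An exact permutation test of these 2 groups alone gave p = 0.00692 (two-sided). In the fit without Dox 1 and Dox 2, whose spread is smaller, the same difference had a limma p of 0.00134 and was the only call among the 10 genes, against 8.3% of all genes.

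Nfkbia was higher in Dox than in Dox + ABT by 0.90 (SE 0.24, limma p = 0.000837, adjusted p = 0.153, two-sided exact permutation p = 0.00528). Without Dox 1 and Dox 2 the difference was smaller and still passed, at 0.49 (0.15 to 0.84, limma p = 0.00713). The groups are unequal in kind of library as divided here, with each group cut at its own gap. With the kind as a covariate and all rats, Nfkbia differed between Dox and Dox + ABT by 0.90 (limma p = 0.00104), and Cd14 passed beside it, as did Bcl3, which entered the test through the Dox group. Of all genes 4.76% passed in that fit, and nothing is read from the count of 3 against it. With the kind as a covariate and the pair left out, it was 0.40 (limma p = 0.0238), past no call. The difference between Dox + ABT and Veh had a limma p of 0.0419 with the kind as a covariate, where 0 of 10 passed and 1.37% of all genes did, and was -0.22 within the first kind (limma p = 0.510).

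Bcl3 codes for an IkB family member that works in the nucleus with p50 and p52. It is sparse in this tissue. In 4 of the 10 Veh rats no read was counted, and the others ran up to 10.9 (group median 1.15). Dox + ABT ran from 0.76 to 4.72. Dox 1 stood at 49.3 (52 estimated reads) and Dox 2 at 68.0 (58 reads). The other 6 Dox rats ran from 1.07 to 10.8 (median 4.37), which rests on 1 to 14 reads each. Dox 1 and Dox 2 were 11.3 and 15.6 times that median, the largest ratios of the 10 genes.

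The log2 difference between Dox and Veh was 2.05 (SE 0.60, limma p = 0.00190, adjusted p = 0.212, two-sided exact permutation p = 0.0116). Dox rats were above the Veh median in 7 of 8 cases and above all Veh rats in 2. Without the pair of rats it was 1.18 (0.09 to 2.28, limma p = 0.0346, exact permutation p = 0.0736), which did not pass. With any single rat left out it passed, from 1.64 to 2.37. Each of those fits kept Dox 1 or Dox 2 and the genes filtered over all rats, so no stability is read from them. Against Dox + ABT the difference was 1.72 (0.43 to 3.01, limma p = 0.0108), and 0.86 (limma p = 0.134) without the pair. The study itself singled out LPS response genes that had risen with Dox in these same samples, so higher values of such genes in Dox are not independent evidence of that direction.

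Tnfaip3 codes for A20, a ubiquitin-editing enzyme that ends NF-kB signaling. It ran from 35.3 to 71.6 in Veh (median 46.9), 38.4 to 72.7 in Dox (median 58.7) and 41.8 to 74.7 in Dox + ABT. Dox 1 at 67.4 and Dox 2 at 72.7 were high within that range, ranking 6 and 2, but were not outside it. The difference between Dox and Veh was 0.20 (-0.12 to 0.52, limma p = 0.211), or 0.09 without the pair, and that between Dox + ABT and Veh 0.24 (-0.07 to 0.56, limma p = 0.126).

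Icam1, the adhesion protein that leukocytes grip on activated endothelium, is a target of NF-kB. Its count ran from 44.7 to 90.1 in Veh, and from 45.9 to 94.6 in Dox + ABT. Dox 1 at 119 and Dox 2 at 130.2 were above every other rat, whereas the other 6 Dox rats, at 46.3 to 81.5, overlapped both groups. The pair stood at 1.93 and 2.12 times the median of the other Dox rats. The group difference was 0.15 (-0.22 to 0.51, limma p = 0.421), and -0.11 (-0.43 to 0.22) without them.

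**Figure D2:**
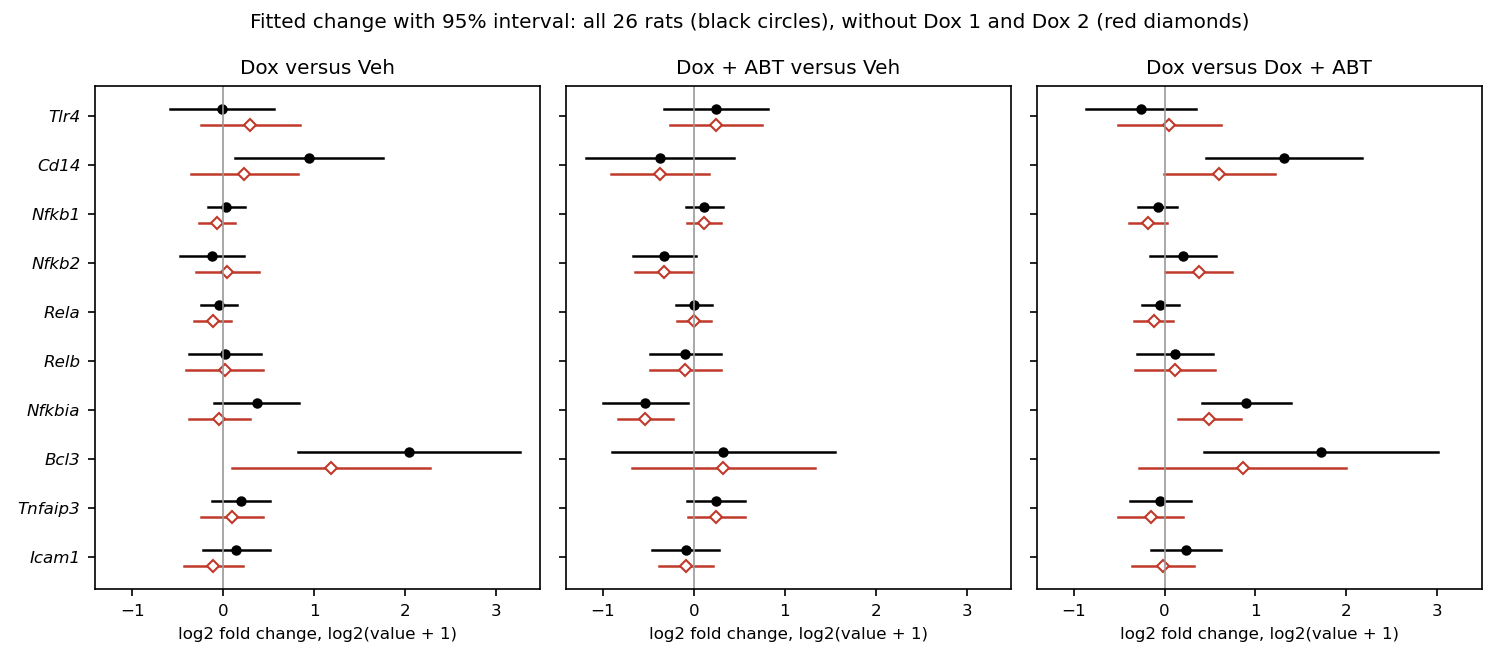
Log2 fold changes on the log2(value + 1) scale (x axis) for the 10 genes (y axis) in the 3 comparisons, with 95% intervals from limma. Black circles are fits to all 26 rats and red open diamonds fits to 24 without Dox 1 and Dox 2. For Bcl3 and Cd14 in Dox against Veh the change drops from 2.05 to 1.18 and from 0.94 to 0.23.

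Taking ranks over all rats, Dox 1 and Dox 2 were the 2 highest for 5 of the 10 genes (Bcl3, Cd14, Nfkbia, Nfkb1 and Icam1), while this held for 6.43% of the 15595 tested genes. They were the 2 lowest for 0 of the 10, against 4.71% of tested genes. Of the 28 possible pairs of Dox rats, this pair was highest together in the most genes, 1002, followed by Dox 5 and Dox 7 with 668. The pair was picked for its values in these genes, so the count is a description. Over the other 24 rats the 5 genes did not rise and fall as a block: Pearson's r of Bcl3 with Cd14 was 0.59 over 26 rats and -0.08 over 24, and of Cd14 with Nfkbia 0.79 and 0.40. Rats of a group share their treatment, and these correlations carry no test.

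Lists of pathway genes show how far the pattern reached. The first list held 20 other genes of the LPS receptor complex and its adaptors, of which 18 were measured and 17 tested. In Dox against Veh 0 rose and 2 fell, beside 2.87% of all genes called in either direction. Cd180, a receptor related to TLR4, fell by 1.004 on the log2 scale (SE 0.24, limma p = 0.000233, adjusted p = 0.114). Tlr2, the receptor for bacterial lipoproteins, fell by 0.53 (SE 0.18, limma p = 0.00692). Irak1, a kinase downstream of MYD88, was 0.18 higher (limma p = 0.0379) and did not pass. Dox 1 and Dox 2 were the 2 lowest rats for Cd180 (14.2 and 18.8) and Tlr2 (37.0 and 38.7), the opposite end from their place for Cd14. Without them Cd180 differed by -0.67 (limma p = 0.00351) and Tlr2 by -0.30 (limma p = 0.0850). Once the fit held the kind of library, Tlr2 again missed the threshold (-0.41, limma p = 0.0111). The list's median change was 0.02, and that of all tested genes 0.00.

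Of 23 IKK, IkB and ubiquitin regulators, 0 passed in Dox against Veh by limma (2.87% of all genes did), with Nkiras2 alone at an unadjusted p under 0.05 (-0.25, p = 0.0295). Otulin followed with -0.26 (p = 0.0525) and Nfkbie with -0.22 (p = 0.0676). Nfkbiz, another nuclear IkB protein, was the gene of the list for which Dox 1 (59.8) and Dox 2 (44.6) were highest, above 27.2 in every other rat. In Dox + ABT against Veh 5 of the 23 passed, beside 7.84% of all genes, and 5 passed without the pair, beside 8.3%. Once the fit held the kind of library, 0 of the 23 passed in limma, 3 of them at an unadjusted p under 0.05, and the count over all genes dropped from 1222 to 214. Without that term, Ikbke and Chuk, which code for IKK-type kinases, were higher by 0.92 and 0.45, and with it their differences were 0.43 and 0.25. Nfkbib, which codes for IkB beta, Otulin and Nkiras2 were lower by -0.36, -0.46 and -0.33 without the term, and differed by -0.29, -0.35 and -0.21 with it. Nfkbib was also the 1 gene of the 23 to pass in Dox against Dox + ABT, near the 4.03% of all genes, and was higher by 0.38 in Dox (limma p = 0.00165). Without Dox 1 and Dox 2 that call was lost, at 0.32 (limma p = 0.0114). Nfkbiz, Ikbke, Chuk and Nfkbib were named after their values were seen.

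Among 21 NF-kB target genes 15 were tested, and 2 passed in Dox against Veh. Since 1 of the 2, Tnf, entered the test through the Dox group, nothing is read from that count against the 2.87% of all genes. Tnf, the cytokine that both triggers and follows NF-kB, rose by 1.47 (SE 0.50, limma p = 0.00633). Vcam1, an endothelial adhesion molecule, fell by 0.40 (SE 0.11, limma p = 0.000782). Plau, the urokinase protease, was 0.89 higher with a p of 0.0218 in limma. Tnf was 44.5 in Dox 1 and 71.0 in Dox 2 and at most 8.80 in the other 24 rats. Without the pair its difference was 0.59 (limma p = 0.118), so that this call too rests on them, as does its place above the filter (mean 6.92, and 2.69 without them). Tnf was also the 1 target to pass in Dox against Dox + ABT, by 2.03 (limma p = 0.000590), where the same holds of its place above the filter. Nothing is read from that count against the 4.03% of all genes. Without Dox 1 and Dox 2 Tnf still passed there, at 1.15 (limma p = 0.00573), from values under the filter. Once the fit held the kind of library, Plau (1.05, limma p = 0.00157) and Vcam1 (-0.28, limma p = 0.00764) passed there beside Tnf. Of all genes 4.76% passed in that fit, and nothing is read from the count against it. In Dox against Veh, Vcam1 kept a change of -0.38 without Dox 1 and Dox 2 (limma p = 0.00393). In Dox against Dox + ABT it was -0.18 without them (limma p = 0.1505).

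Dox 1 and Dox 2 were the 2 highest for 5 of the 15 tested targets (Tnf, Plau, Birc3, Ier3 and Sele). Tnf was tested only because it is high in these rats, so nothing is read from that count against the 6.43% of all tested genes. Birc3, an inhibitor of apoptosis, was 64.9 and 51.8 in the pair and at most 15.3 elsewhere. Among targets below the filter, Lcn2, the iron-binding protein lipocalin 2, was 23.7 and 32.9 in the pair and at most 4.72 in the other rats. The chemokine Cxcl1 was 15.2 and 30.5, and at most 9.99 in the others. Il1b, Ccl2 and Cxcl10 showed no such step, since the pair stood at 3.80 or less for each of them. Apart from Tnf, Vcam1 and Plau, the targets named here were chosen after their values were seen.

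The list of STAT3 and cytokine receptor genes, a pathway that shares targets with NF-kB, held 14 tested genes, and 3 rose in Dox against Veh, beside 2.87% of all genes called. Pim1, a kinase induced by cytokines, rose by 1.17 (SE 0.30, limma p = 0.000589). Osmr, the oncostatin M receptor, rose by 1.43 (SE 0.38, p = 0.000786), and Socs3, which ends STAT3 signaling, by 1.45 (SE 0.42, p = 0.00166). Dox 1 and Dox 2 were the 2 highest rats for 8 of the 14 (6.43% of all tested genes), Stat3 and Il4r included, named after their values were seen. Socs3 was 93.9 and 182 in the pair, and at most 18.9 in the other 24 rats. Without them Pim1 kept its call, at 0.65 (limma p = 0.00748), and Osmr (0.86, p = 0.0139) and Socs3 (0.68, p = 0.0193) did not. In Dox + ABT against Veh 0 of the 14 passed in limma, with 2 at an unadjusted p under 0.05, and the median of the list was 0.32 for Dox (0.05 without the pair) and -0.02 there. In the fit without Dox 1 and Dox 2, 2 of the 14 passed there, against 8.3% of all genes: Osmr at 1.01 (limma p = 0.00215) and Il4r at -0.25 (limma p = 0.00328). In Dox against Dox + ABT 3 of the 14 were higher in Dox (Socs3, Il4r and Cebpd), beside 4.03% of all genes, and without the pair 2 passed (2.97%), Il4r higher and Timp1 lower. Once the fit held the kind of library, 5 of the 14 were higher there, beside 4.76%, with Pim1 and Stat3 added. Cebpd and Timp1 were named after their values were seen. These comparisons share groups of rats.

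**Figure D3:**
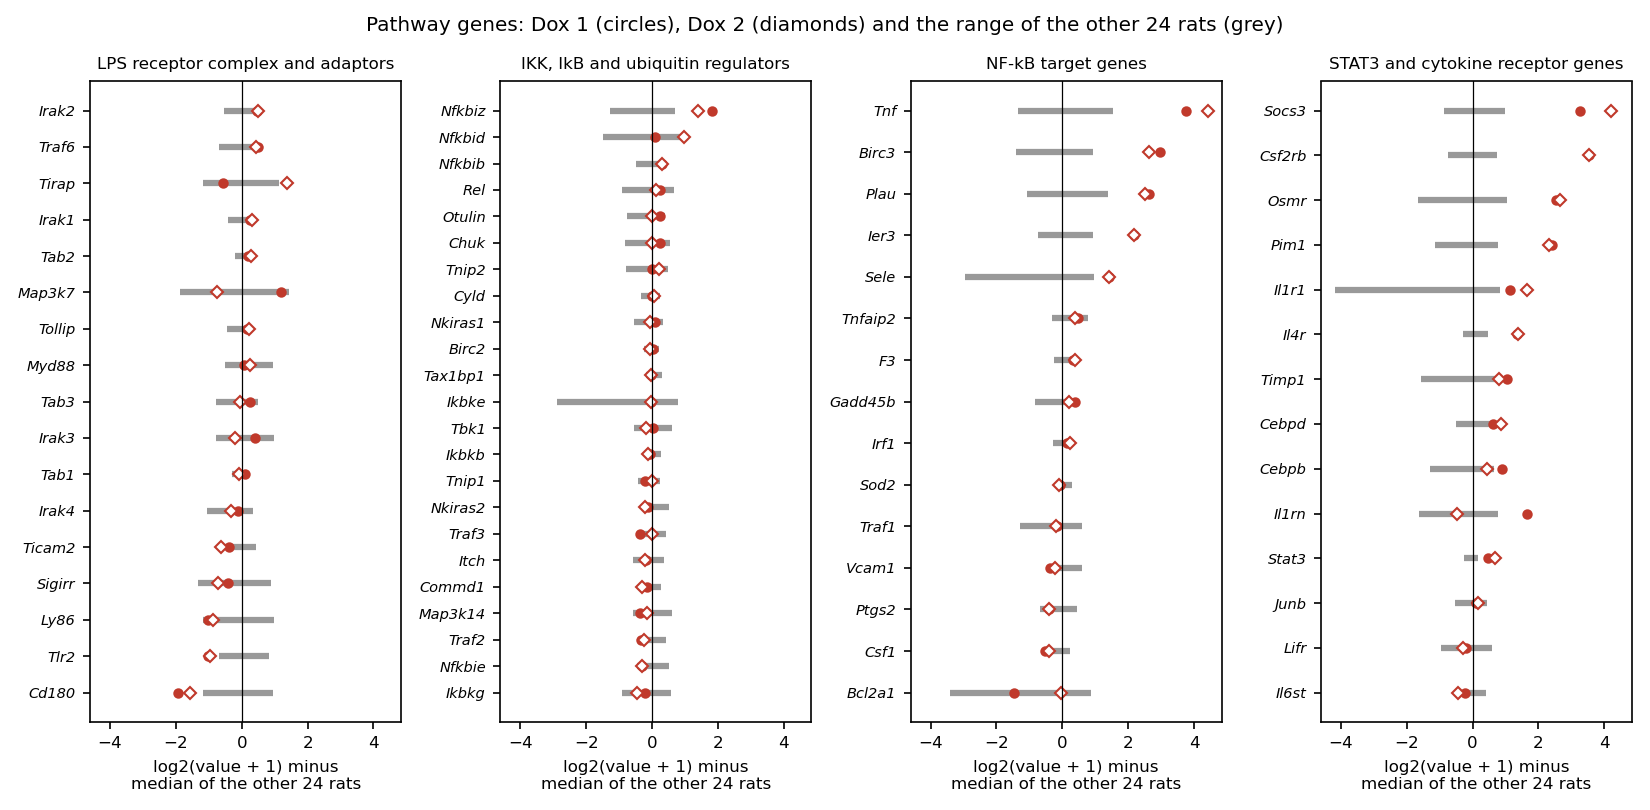
Tested genes of 4 pathway lists (y axis), each with Dox 1 (filled circle), Dox 2 (open diamond) and the range of the other 24 rats (grey bar), as log2(value + 1) minus the median of those 24 (x axis). Both points lie right of the bar for 5 of 15 NF-kB targets and 8 of 14 STAT3 and cytokine receptor genes, and for 1 gene in each of the other lists.

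By the likeness of log2 values over the 26 rats, the genes nearest to Bcl3 were Plat, Adgrl4, Baiap3, Fn1 and Dgke, with Pearson's r from 0.78 to 0.82. Plat, the tissue plasminogen activator, was 1528 in Dox 1 and 1292 in Dox 2, and 384 to 919 elsewhere. Fn1, fibronectin, was 2913 and 2662, against 322 to 1592. Without the pair, r fell to between 0.48 and 0.67. The genes nearest to Cd14 were Mt1, RGD1310819, Map3k6, Car7 and H3f3a, with r from 0.83 to 0.91. Mt1, the metal-binding metallothionein 1, was 1492 and 1643 in the pair and 69.8 to 225 in the other 24 rats. Map3k6, a stress-activated kinase, was 128 and 137, against 2.98 to 23.8. Over 24 rats r was between 0.47 and 0.66 for these 5. These are descriptions over rats that share treatment and kinds of library, with no test.

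In bulk tissue fewer cells of a type and less RNA per cell cannot be told apart, so markers of the cells that the DG could hold are given beside these results. The 7 microglia markers, Csf1r and Cx3cr1 the most abundant, summed to 2653 to 5244 in Veh, 2118 to 3716 in Dox and 2432 to 4257 in Dox + ABT. Dox 1 (2118) and Dox 2 (2164) had the lowest sums of all rats, and were the 2 lowest for 5 of the 7 markers. In Dox against Veh 4 of the 7 fell, beside 2.87% of all genes called, and 0 without the pair (limma, with 2 at an unadjusted p under 0.05), beside 1.16%. With all rats and the kind of library in the fit, 2 of the 7 fell in Dox against Veh, beside 2.70%. In Dox + ABT against Veh 2 of the 7 fell, beside 7.84%, Csf1r by 0.48 (limma p = 0.00199) and Trem2 by 0.48 (limma p = 0.00737), named after their values were seen. Both also passed without the pair. Once the fit held the kind of library, 0 of the 7 passed there in limma, 1 of them at an unadjusted p under 0.05. Cd14 thus stood high in the rats with the lowest microglia markers. The part of cell makeup in any of these results was not tested.

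The 4 measured markers of blood granulocytes and monocytes, S100a8 and Fcnb the highest, were near 0, with sums of at most 18.2 in any rat and of 3.82 and 2.35 in Dox 1 and Dox 2. Endothelial markers, led by Cldn5 and Flt1, summed to 1714 and 1612 in the pair, below the other 6 Dox rats (1999 to 2925) and within Veh (1076 to 3707). In Dox against Veh 2 of the 7 tested endothelial markers passed, in opposite directions, and 1 without the pair, beside 2.87% and 1.16% of all genes called. Kdr rose by 0.81 (limma p = 0.000538) and by 0.78 without the pair (limma p = 0.00246). Emcn fell by 0.85 (limma p = 0.00331), and without the pair it differed by -0.37 (limma p = 0.0432). Both were named after their values were seen. Mural markers (Pdgfrb, Rgs5) summed to 754 and 704, and border macrophage markers (Lyve1, Stab1) to 106 and 81.0. Mural sums ran from 746.2 to 847.4 in the other Dox rats, 524.5 to 1157 in Veh and 576.6 to 968 in Dox + ABT. Border macrophage sums ran from 86.99 to 152.2, 89.23 to 138.6 and 81.94 to 122.9 in the same order, so Dox 2 had the lowest. Red cell genes (Hbb, Hba-a2) summed to 19230 and 19410, against 1540 to 17770 in Veh and 2415 to 90340 in the other Dox rats. In Dox against Veh 0 of the 3 red cell genes passed in limma, with 1 at an unadjusted p under 0.05, and 3 of 3 were higher once the fit held the kind of library, beside 2.87% and 2.70% of all genes called. Meninges and choroid plexus genes (Igf2, Ttr) summed to 294 and 275, with 192 to 303 over all Dox rats, 216 to 408 in Veh and 220.2 to 770 in Dox + ABT. In Dox against Veh 1 of the 5 tested genes passed, Lum, which fell by 0.90 (limma p = 0.00151) and missed the threshold without the pair (-0.77, limma p = 0.0102).

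Of the astrocyte markers, with Gfap and Slc1a3 the highest, 3 of 5 fell in Dox against Veh with and without the pair, beside 2.87% and 1.16% of all genes called. Astrocyte sums were 31350 in Dox 1 and 30640 in Dox 2 and ran from 29840 to 37280 in the other Dox rats. They ran from 36230 to 56560 in Veh and from 34810 to 50610 in Dox + ABT. Granule neuron markers, which define the labelled tissue, were abundant in every rat: Prox1 and C1ql2, with Dsp and Calb1, summed to between 8177 and 13390. They were 10140 in Dox 1 and 9970 in Dox 2. C1ql2 was the 1 of these 4 to pass in Dox + ABT against Veh (7.84% of all genes), where it fell by 0.46 (limma p = 0.000697), and it passed once the fit held the kind of library (-0.33, limma p = 0.00812).

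In Dox against Dox + ABT, the comparison with the calls for Nfkbia and Cd14, 3 of the 41 tested markers passed, all lower in Dox, beside 4.03% of all genes. They were Emcn (-1.06, limma p = 0.000650), Aqp4 (-0.45, limma p = 0.00135) and Lum (-0.77, limma p = 0.00818). In the fit to 24 rats, without that pair, 4 of the 41 passed, beside 2.97% of all genes: Emcn (-0.59), Aqp4 (-0.40) and Ttr (-2.21) were lower in Dox and Cldn5 (0.78) was higher. With the kind of library in the fit 6 of the 41 passed, each lower in Dox, beside 4.76%: Emcn, Aqp4, Lum, Gfap, Aif1 and Dcn. None of the 3 fits called a microglia marker higher in Dox. Markers outside the most abundant of each list were named after their values were seen, and their part in the calls for Nfkbia and Cd14 was not tested.

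**Figure D4:**
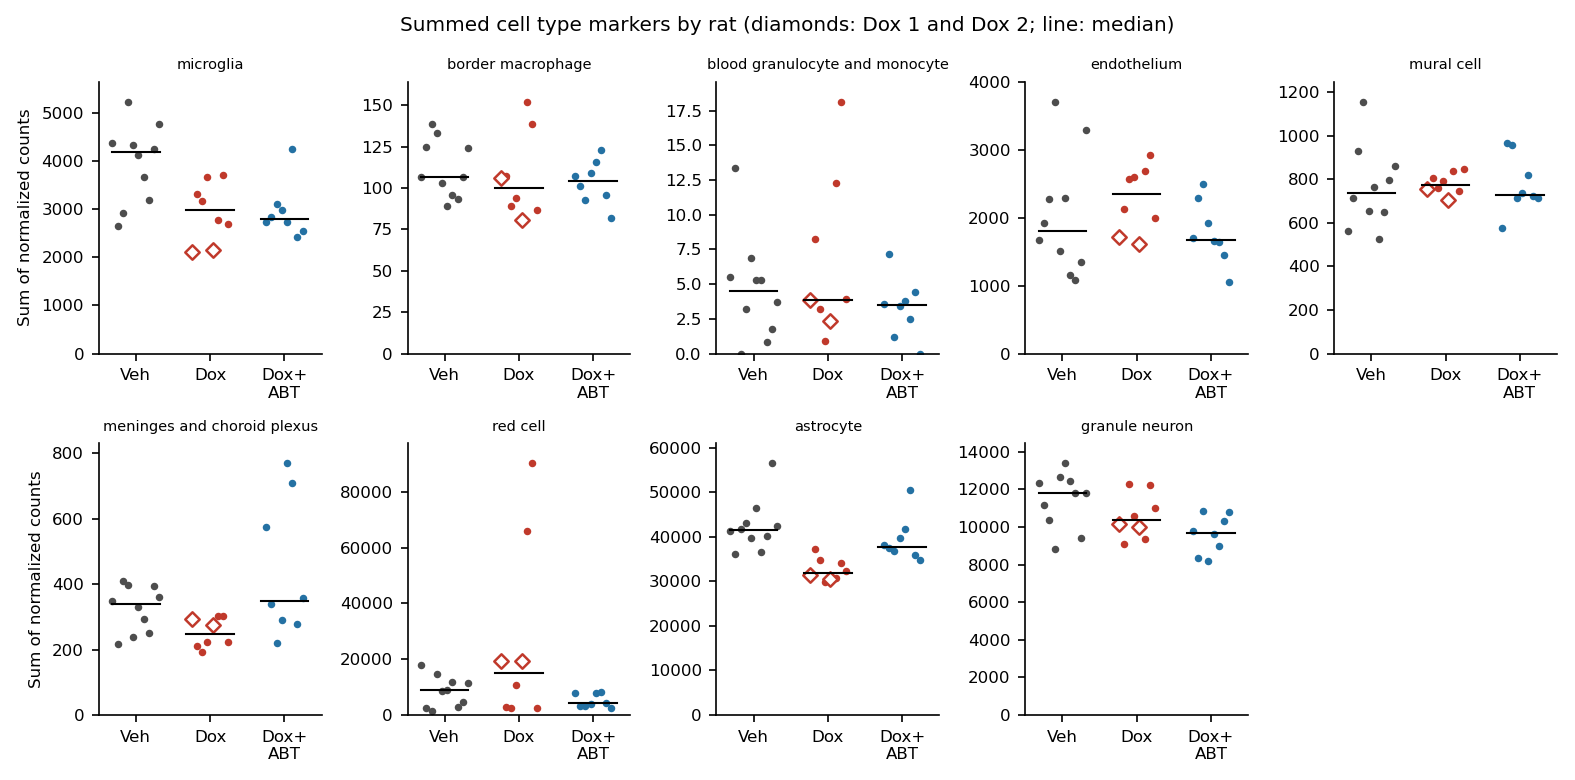
Summed normalized counts of 9 lists of cell type markers (y axis, linear from 0) in every Veh (grey), Dox (red) and Dox + ABT (blue) rat, with black lines at group medians and open diamonds for Dox 1 and Dox 2. The diamonds are the lowest points for microglia (2118 and 2164) and lie within the range of other rats for granulocytes and monocytes, mural cells, astrocytes and granule neurons.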

How the data were processed

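Poly(A) RNA of the dentate gyrus was sequenced on an Ion Proton from 26 rats, 1 library per rat, at 10200000 to 24300000 estimated reads. The authors trimmed the reads, aligned them to rn6 with STAR (2.5.3a, per the submitters' processing notes) in Partek Flow, and normalized gene counts by Median Ratio. They then tested differences on counts at p under 0.01 after excluding genes under 5 counts. The deposited signal is the normalized count of each transcript row, before that filter. Median Ratio scaling assumes that most genes do not change, and low values rest on few reads.

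Rows were summed by Ensembl gene ID, and groups came from the sample labels. Whole reads could be recovered for 75.5% to 78.4% of low values per library (within 0.02 reads), too few for a count test, which had been planned had the values been raw counts. Log2(value + 1) of 15595 genes with a mean of at least 5 was fitted with limma 3.58.1 in R 4.3.3, using eBayes with a variance trend, 1 fit of 3 groups and two-sided tests. Genes were called at p under 0.01, the threshold of the study, with Benjamini-Hochberg values over all tested genes beside it. In simulated data with 200 of 15595 genes changed by 1 on the log2 scale between Dox and Veh, 88.5% were recovered and 1.05% of unchanged genes called. Exact permutation tests enumerated every split of 2 groups. Figures used Python 3.11.15 and matplotlib 3.10.9.

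The 10 genes and the lists were chosen with earlier results of these data known. Besides the 10, the text names the 3 genes of each pathway list with the smallest p in Dox against Veh, the 2 most abundant of each marker list, and the 5 genes nearest to Bcl3 and to Cd14 with a mean of at least 20. Genes outside this rule are said to be chosen after their values were seen, as were the fits without Dox 1 and Dox 2. The alternatives changed the pseudocount, the filter, the variance model, the weights, the scaling, the block, the kind of library, the rows and the rats included. No genome of the rn6 build was used here, so expression rows carry no coordinates. The values of 1 further marker gene are not reported here.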

Additional observations from a re-analysis of the deposited data

Results flagged for a closer look

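A single rat stood far from its group in 3 of the 30 sets of a gene and a group (10 genes in 3 groups), by the gap to the nearest rat over the group's range; chance gives about 1 in 20. Bcl3 was 10.9 in Veh 11, with a gap of 0.605 of the range. Cd14 was 4.47 in Veh 10, with a gap of 0.537, and rests on 3 estimated reads. Nfkb2 was 89.2 in Dox + ABT 12, with a gap of 0.548. Dox 1 and Dox 2 were not singled out in this way, because each is the other's nearest rat.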

How the results depend on the processing

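Counts below are of the 10 genes passing limma p under 0.01. Dox against Veh gave 1, Dox + ABT against Veh 0 and Dox against Dox + ABT 2. The first was 0 with a mean of at least 20 (Bcl3 was not tested there), within the first kind of library, without Dox 1 and Dox 2, and without them with the kind as a covariate, and 3 with the replicate block (4.91% of all genes there). The second was 1 (Nfkbia) with arrayWeights, the compared groups alone, the replicate block, and without Dox 1 and Dox 2, where 34.0%, 8.14%, 7.57% and 8.3% of all genes passed. The third was 1 without Dox 1 and Dox 2, 0 when the kind was also a covariate, and 1 to 3 with each rat left out (1 without Dox 1, Dox 2 or Dox + ABT 11, and 3, with Bcl3 added, without Veh 11, Dox 7, Dox 10, Dox 13, Dox 14 or Dox + ABT 1). It was also 3, Bcl3 being the addition, with a pseudocount of 5, no filter, quantile normalization, the replicate block and the kind as a covariate, where 2.58% to 4.76% of all genes passed. Leaving out each rat, with the genes filtered over all rats kept, left the first at 1 and the second at 0. The first is Bcl3, which entered the test through the Dox group. Each of these fits held Dox 1 or Dox 2, so no stability is read from it.

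Replicate numbers do not pair the rats: same-numbered rats of different groups had a median correlation of -0.0125 (-0.222 to 0.442, 16 pairs), and 1 of 23 rats correlated best with its own number. With the replicate block, Cd14 and Nfkbia passed in Dox against Veh (1.51 and 0.689 on the log2 scale).

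Values that changed sign were as follows, in log2, and the causes were not tested; "the pair" is Dox 1 and Dox 2. For Dox against Veh, Nfkbia was -0.124 in the second kind, -0.0394 without the pair and -0.0137 with the covariate added. Nfkb1 was -0.024 with the covariate, -0.204 in the second kind, -0.0692 without the pair and -0.0914 with the covariate added. Nfkb2 was 0.0904 in the second kind and 0.0471 and 0.0818 without the pair, without and with the covariate. Rela was 0.117 with the replicate block and 0.233 in the first kind, and Relb -0.0399 with arrayWeights and -0.19 in the second kind. Tlr4 was 0.297 with arrayWeights, 0.0066 with ranks, 0.0279 with the covariate, 0.602 in the second kind, and 0.299 and 0.30 without the pair. Icam1 was -0.0634 in the second kind and -0.107 and -0.0993 without the pair. With single rats left out, Nfkb1 ran from -0.0101 to 0.104, Relb from -0.0533 to 0.0996 and Tlr4 from -0.124 to 0.172. For Dox + ABT against Veh, Nfkb1 was -0.0135 with the covariate, Rela -0.105 (arrayWeights) and -0.0293 (replicate block), and Relb 0.0222 with the covariate, 0.0835 in the first kind and 0.0321 without the pair with the covariate. Tnfaip3 was -0.0505 and Tlr4 -0.067 in the first kind. With single rats left out, Rela ran from -0.0471 to 0.0508 and Relb from -0.165 to 0.0164. For Dox against Dox + ABT, Nfkb1 was 0.126 (replicate block) and 0.0647 (first kind), and Rela 0.0378 (arrayWeights), 0.147 (replicate block) and 0.0957 (first kind). Tnfaip3 was 0.00518 (arrayWeights), 0.0051 (quantiles), 0.342 (replicate block), 0.0116 (covariate) and 0.121 (first kind), and -0.112 to 0.0304 with single rats left out. Without the pair, Tlr4 was 0.0537 and 0.0493, and Icam1 -0.0178 and -0.045, without and with the covariate. With all rats and the settings of the report, none of these was a gene called in that comparison. Few reads limit Bcl3, Tlr4 and most Cd14 values.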
